A study of Homo sapiens with 4 samples.

Results

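The genes described here are 10 of the 25027 gene symbols or identifiers in the deposited tables. TMEM87B, MAPK6, PLEKHA1 and NEK7 were selected on their FPKM, because it was higher with SAF-A siRNA than with control siRNA at both sampling times, so this direction is a description and supports nothing. TMEM87A, MAPK4, MAPKAPK5, PLEKHA2, NEK6 and NEK9 are 6 paralogs or partners of those proteins and are set against them. All rows of the tables that carry a RefSeq transcript of these 10 symbols were used, and FPKM (fragments per kilobase of transcript, scaled to mapped fragments) was summed per symbol.

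The cells were RPE1, an established human line derived from retinal pigment epithelium and immortalised by telomerase. They were transfected with 10 nM Stealth siRNA in Lipofectamine, either against SAF-A, a nuclear RNA-binding protein encoded by HNRNPU, or the supplier's negative control, and RNA was taken at 24 h or 48 h. The design has 4 groups of 1 library each: control siRNA at 24 h, SAF-A siRNA at 24 h, control siRNA at 48 h and SAF-A siRNA at 48 h. With 1 library per group there is no replicate check and no test, and each difference is one between libraries. A single siRNA sequence was used against SAF-A, so loss of SAF-A and other effects of that sequence cannot be told apart.

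TMEM87A and TMEM87B are multi-pass membrane proteins of the Golgi that carry a luminal GOLD domain and have been linked to retrograde traffic from endosomes to the trans-Golgi network. MAPK6 (ERK3) and MAPK4 (ERK4) are atypical mitogen-activated protein kinases that bind and activate the kinase MAPKAPK5 (MK5 or PRAK), and ERK3 is known as a short-lived protein. PLEKHA1 and PLEKHA2 (TAPP1 and TAPP2) are adaptor proteins whose pleckstrin homology domain binds the lipid PtdIns(3,4)P2, made during PI3-kinase signalling. NEK6 and NEK7 are small kinases that act in mitotic spindle assembly downstream of NEK9, and NEK7 also binds the inflammasome sensor NLRP3.

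The number of mapped reads implied by the deposited values was 28083822 to 30701282 in 3 libraries and 1216740 in the SAF-A 48 h library, so every value from that library has a wide counting error. HNRNPU, the siRNA target, was at 91.2 (control) against 10.4 FPKM (SAF-A) at 24 h and at 84.6 against 9.24 FPKM at 48 h, as labelled. Of 7 markers of mature retinal pigment epithelium, RPE65 was listed at 0 in every library and 5 stayed below 1 FPKM, while MITF lay between 4.23 and 9.01 FPKM. The simple-epithelial keratin KRT18 lay between 123.9 and 229.1 FPKM in 3 libraries and at 23.3 FPKM in the SAF-A 48 h library, and its part in the results was not tested. Of the same marker list, KRT8 lay between 15.4 and 63.9 FPKM, while CDH1 was listed at 0 in all libraries. VIM, the mesenchymal intermediate filament, lay between 1586 and 3312 FPKM, and PTPRC (leukocytes), PECAM1 and CDH5 (endothelium) stayed at or below 0.347 FPKM. Of the other mesenchymal markers, CDH2 lay between 51.1 and 81.5 FPKM and COL1A1 only between 0.523 and 2.01 FPKM. The neuronal marker MAP2 lay between 1.32 and 2.59 FPKM, and RBFOX3 at or below 0.0256 FPKM. CD3E, a T-cell marker, was listed at 0 in all libraries, while CD68, also on the leukocyte list, lay between 7.001 and 11.3 FPKM. Changes below are differences in log2(FPKM + 1), a scale that understates the change of low genes, among 11053 genes whose mean reached 1 FPKM and whose longest spliced transcript reached 300 nt. A gene is called changed from 2-fold on this scale, and 9 of the 10 genes could be compared.

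The siRNA against SAF-A is shown first because it and the time are what differs between the groups by design. The guide is the reverse complement of the sense strand given in the labels, and its seed (bases 2 to 8) is in capitals.

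SAF-A siRNA, sense: ccugggaaucgtggcggatataata

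SAF-A siRNA, guide: tATTATATccgccacgattcccagg

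HNRNPU transcripts hold all 25 bases of the target. The longest run that any of the 10 genes shares with either strand was 7 to 9 bases, and the median over 11047 compared genes with sequence was 8. PLEKHA1 and NEK7 each hold 1 copy of the seed site ATATAAT in their spliced transcripts and the other 8 genes hold none. A copy is found in 22.4% of compared genes.

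The raised genes were chosen as higher at both times. Their promoters are shown next, with that of TMEM87A as the paralog of TMEM87B. They are from RefSeq (GRCh38.p14), 250 bases before to 50 bases after the start of the gene. A promoter was matched for 8 of the 10 genes and 3 of the 4 raised ones, not NEK7. TMEM87A has 2 entries, of which 1 is printed. For PLEKHA1 only 1 start was matched, against 3 among the deposited transcripts, and which of the 3 it stands for was not determined. The transcript with the most upstream start, NM_001001974, was at 0.189 FPKM (control) and 3.6e-05 FPKM (SAF-A) at 24 h. The printed PLEKHA1 window may therefore not be that of the transcripts that were higher at 24 h. Capitals mark the motifs searched on both strands: the TATA box (TATAAA), the CCAAT box (CCAAT), the GC box (GGGCGG), the E-box (CACGTG), the cAMP response element (TGACGTCA), the ETS core (CCGGAAG) and the NRF1 palindrome. Where copies of a motif overlap, their capitals run together.

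TMEM87B (chr2:112055019-112055318, plus strand): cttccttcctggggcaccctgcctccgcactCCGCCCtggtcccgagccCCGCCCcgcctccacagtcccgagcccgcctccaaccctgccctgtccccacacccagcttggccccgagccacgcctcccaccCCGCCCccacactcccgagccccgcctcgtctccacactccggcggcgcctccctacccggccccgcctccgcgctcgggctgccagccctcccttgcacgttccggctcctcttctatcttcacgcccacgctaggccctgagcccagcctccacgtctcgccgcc

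MAPK6 (chr15:52018969-52019268, plus strand): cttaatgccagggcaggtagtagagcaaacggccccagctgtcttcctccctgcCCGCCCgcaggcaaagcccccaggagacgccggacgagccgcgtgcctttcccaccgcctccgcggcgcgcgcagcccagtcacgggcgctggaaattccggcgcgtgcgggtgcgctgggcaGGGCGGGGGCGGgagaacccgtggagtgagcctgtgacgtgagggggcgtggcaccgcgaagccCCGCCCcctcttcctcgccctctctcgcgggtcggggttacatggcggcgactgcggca

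PLEKHA1 (chr10:122374458-122374757, plus strand): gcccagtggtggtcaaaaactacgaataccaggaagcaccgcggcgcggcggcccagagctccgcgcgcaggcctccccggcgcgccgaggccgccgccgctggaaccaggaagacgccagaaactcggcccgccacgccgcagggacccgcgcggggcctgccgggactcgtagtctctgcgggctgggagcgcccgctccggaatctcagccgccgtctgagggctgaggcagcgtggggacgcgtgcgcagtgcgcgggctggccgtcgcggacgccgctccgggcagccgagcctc

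TMEM87A (chr15:42273384-42273683, minus strand): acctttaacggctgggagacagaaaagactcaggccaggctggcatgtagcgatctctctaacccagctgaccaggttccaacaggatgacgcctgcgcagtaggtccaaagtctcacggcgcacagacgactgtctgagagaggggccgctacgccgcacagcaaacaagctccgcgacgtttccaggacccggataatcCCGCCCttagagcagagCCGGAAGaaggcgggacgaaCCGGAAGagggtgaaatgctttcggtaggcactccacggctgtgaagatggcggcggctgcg

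The GC box GGGCGG was found 3 times at TMEM87B, 4 times at MAPK6 and not at PLEKHA1, while 45.0% of 35116 promoters hold it. CCGGAAG, the core that ETS factors bind, was found in 2 copies at the printed TMEM87A promoter and not at the 3 raised genes, while 10.3% of promoters hold it. The other TMEM87A promoter (chr15:42273016-42273315) holds no copy of it and no GC box, and its G and C content is 58.7%. None of the 3 raised promoters held TATAAA (11.5% of promoters), CCAAT (34.6%), CACGTG (7.26%), TGACGTCA (1.85%) or the NRF1 palindrome (1.24%). The windows were rich in G and C, with 74.7% at TMEM87B, 72.3% at MAPK6 and 75.3% at PLEKHA1. The median over all promoters was 58.7%, and the printed TMEM87A promoter had 60.0%. This was not particular to raised genes: MAPKAPK5 had 76.3% with 4 GC boxes and MAPK4 82.7% with 5. NEK9 had 64.7% and no GC box, and the NEK6 entries ran from 54.3% without a GC box to 85.3% with 8. No single motif of this set was held by all 3 raised promoters.

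Among the trafficking genes, TMEM87B was low in both control libraries and higher in both SAF-A libraries. Its level was 1.94 FPKM with control siRNA at 24 h, 7.82 FPKM with SAF-A siRNA at 24 h, 1.75 FPKM with control siRNA at 48 h and 21.3 FPKM with the SAF-A siRNA at 48 h. The deposited 95% intervals did not overlap at either time, running from 1.52 to 2.18 FPKM over the controls and from 7.36 to 25.1 FPKM over the SAF-A libraries. FPKM was 4.03 times control at 24 h (log2 difference 1.58) and 12.2 times control at 48 h (3.02). The 48 h value rested on about 130 reads and the others on 250 to 1203. The control libraries lay within each other's intervals. With SAF-A siRNA the 48 h level was 2.73 times the 24 h level (log2 difference 1.34). The intervals cover error within a library only, so these are differences between single libraries. In bulk RNA, a different level per cell and a different share of cells carrying the RNA cannot be told apart.

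TMEM87A, the paralog, was the more abundant of the pair in all 4 libraries. It was at 28.8 (control) against 30.7 FPKM (SAF-A) at 24 h and at 27.7 against 66.9 FPKM at 48 h. Only the SAF-A 48 h library was high, with an interval of 51.5 to 82.3 FPKM, and the other 3 ran from 25.5 to 32.7 FPKM. The log2 difference between siRNAs was 0.09 at 24 h (extreme bounds -0.10 to 0.28) and 1.24 at 48 h (0.77 to 1.65), so TMEM87A passed 2-fold at 48 h. On the opposite strand, exons of GANC overlap 6.34% of its exonic bases and those of VPS39-DT 5.17%, and whether the counting used strand is not given in the sources used here.

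Among the kinases of the ERK3 module, MAPK6 was higher in the SAF-A library at both times. It was at 17.3 FPKM with control siRNA at 24 h, 47.4 FPKM with SAF-A siRNA at 24 h, 9.42 FPKM with control siRNA at 48 h and 48.8 FPKM with the SAF-A siRNA at 48 h. The SAF-A libraries were alike (intervals 46.2 to 48.7 and 42.4 to 55.2 FPKM) and both lay above both controls. FPKM was 2.74 times control at 24 h (log2 difference 1.40) and 5.18 times control at 48 h (2.26). MAPK6 was also lower at 48 h than at 24 h with control siRNA, by a log2 difference of -0.81 (-0.95 to -0.67), which did not reach 2-fold. Of the 50-base stretches of its transcript, 25.9% are also found elsewhere in the GRCh37 genome, and GENCODE names 6 pseudogenes of it. The level of MAPK6 is therefore uncertain by an amount that was not measured.

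MAPKAPK5, the kinase that ERK3 activates, differed little between libraries when its transcripts were summed. It was at 12.8 (control) against 10.4 FPKM (SAF-A) at 24 h and at 12.3 against 10.6 FPKM at 48 h, with all 4 intervals overlapping. Its log2 difference was -0.28 at 24 h (-0.63 to 0.08) and -0.20 at 48 h (-1.59 to 0.59), the last from about 27 reads. Taking only the transcript with the highest mean, NM_139078, brought the 48 h difference to -1.56, past 2-fold, from about 8.88 reads with SAF-A siRNA. It brought the difference with time under control siRNA to 0.82. The antisense gene MAPKAPK5-AS1 overlaps 23.7% of its exonic bases, so its level is uncertain by an amount that was not measured.

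MAPK4, the closest relative of MAPK6, was hardly detected and was not compared. It had 0.00786 (control) against 0.00719 FPKM (SAF-A) at 24 h, which is about 1.00 read each, and was listed at 0 in both 48 h libraries. A count of 0 allows up to 3 reads, or 0.0231 FPKM in the control 48 h library and 0.544 FPKM in the SAF-A 48 h library. MAPK6 RNA was thus present in all 4 libraries and MAPK4 RNA in the 24 h libraries at the level of single reads.

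Among the adaptors of PtdIns(3,4)P2, PLEKHA1 was higher with SAF-A siRNA and PLEKHA2 lower. PLEKHA1 was at 3.33 (control) against 10.4 FPKM (SAF-A) at 24 h and at 3.62 against 9.86 FPKM at 48 h. Each SAF-A library lay above each control, with summed intervals of 2.60 to 4.28 FPKM over the controls and 4.91 to 15.3 FPKM over the SAF-A libraries. FPKM was 3.11 times control at 24 h (log2 difference 1.39, 1.02 to 1.79) and 2.72 times control at 48 h (1.23, 0.16 to 2.03), the latter from about 45 reads. Taking only the transcript with the highest mean, NM_001195608, brought the 24 h difference to 0.70, under 2-fold.

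PLEKHA2 was at 25.2 (control) against 19.5 FPKM (SAF-A) at 24 h and at 31.3 against 12.3 FPKM at 48 h. Exons of an opposite-strand gene overlap 11.5% of its exonic bases. Both SAF-A libraries were below both controls, and the 95% intervals were apart at both times. The log2 difference was -0.36 at 24 h (-0.45 to -0.26), short of 2-fold, and -1.28 at 48 h (-1.65 to -0.97), where it was called lower.

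Among the NEK kinases, NEK7 varied most. It was at 33.4 FPKM with control siRNA at 24 h, 79.0 FPKM with SAF-A siRNA at 24 h, 4.83 FPKM with control siRNA at 48 h and 39.1 FPKM with the SAF-A siRNA at 48 h. The control 48 h library stood lowest, and the SAF-A 48 h library (33.3 to 44.9 FPKM) overlapped the interval of the control 24 h library (32.3 to 34.5 FPKM). FPKM was 2.36 times control at 24 h (log2 difference 1.22) and 8.11 times control at 48 h (2.78).

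With control siRNA alone NEK7 was at 48 h 0.144 times its 24 h level, a log2 difference of -2.56 (-2.72 to -2.42). Only 1 of the 11053 compared genes was lower by this measure. With SAF-A siRNA NEK7 at 48 h was 0.495 times its 24 h level, a log2 difference of -0.996 that fell just short of 2-fold and passed it with a pseudocount of 0.1. The difference between siRNAs at 48 h and the difference with time under control siRNA share the control 48 h library, so they are not separate evidence.

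NEK6, the near copy of NEK7, was not called changed between siRNAs at either time when its transcripts were summed. It was at 12.7 (control) against 10.4 FPKM (SAF-A) at 24 h and at 19.5 against 23.9 FPKM at 48 h. The siRNA difference was -0.27 at 24 h (-0.70 to 0.18) and 0.28 at 48 h (-0.40 to 1.05), with overlapping intervals. Taking only the NEK6 transcript with the highest mean, NM_001166168, brought the 48 h difference to 2.29, past 2-fold. NEK6 was the higher at 48 h, with time differences of 0.58 under control siRNA (0.12 to 1.05) and 1.13 under SAF-A siRNA (0.46 to 1.87), and only the latter passed 2-fold. NEK7 had the lower of its levels at 48 h under both siRNAs.

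NEK9, the upstream kinase, was level. It was at 5.65 (control) against 5.14 FPKM (SAF-A) at 24 h and at 5.81 against 5.54 FPKM at 48 h, all within overlapping intervals. The siRNA difference was -0.12 at 24 h (-0.28 to 0.05) and -0.06 at 48 h (-0.63 to 0.39), the latter from about 36 reads.

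**Figure D1:**
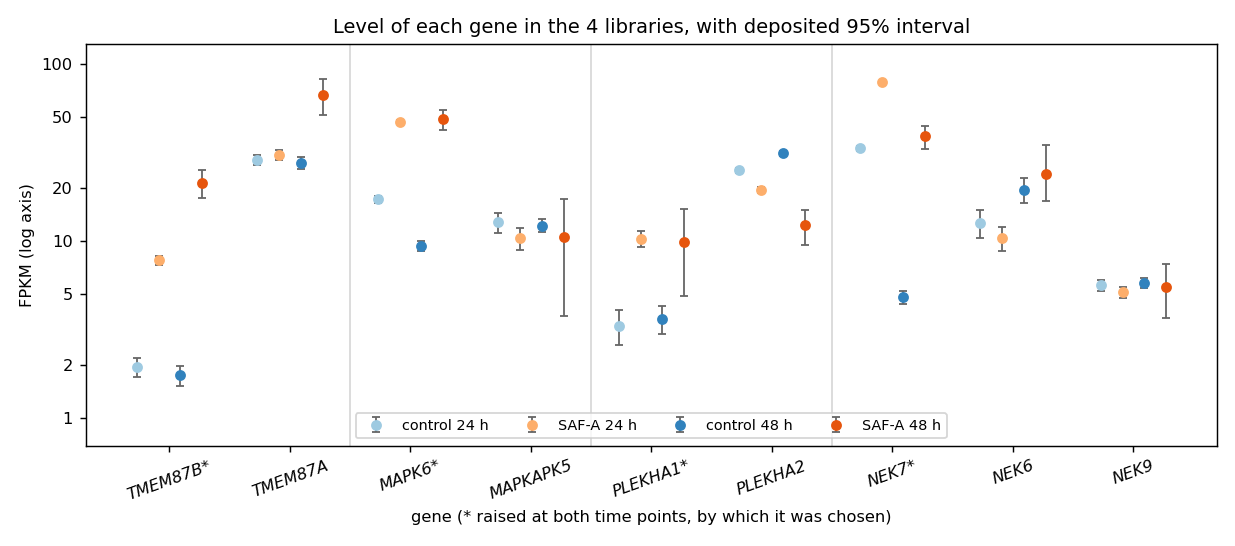
FPKM on a log axis of 9 of the 10 genes in the 4 libraries, with points for the deposited level and bars for the deposited 95% interval; MAPK4, near 0, is not drawn. TMEM87B, MAPK6, PLEKHA1 and NEK7 have both orange SAF-A points above the blue control point of the same time, and NEK7 stands at 4.83 FPKM in the control 48 h library.

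The order of levels differed between libraries. With control siRNA at 24 h NEK7 was highest and TMEM87B lowest of the 9 measurable genes, and only MAPKAPK5 and NEK6 had overlapping intervals among neighbours. With SAF-A siRNA at 24 h MAPK6 stood next to NEK7, above TMEM87A and PLEKHA2, and MAPKAPK5, NEK6 and PLEKHA1 could not be ordered (10.4 FPKM each). With control siRNA at 48 h PLEKHA2 was highest, and NEK7 stood below NEK9 and above only PLEKHA1 and TMEM87B of the measurable genes. In the SAF-A 48 h library TMEM87A was highest, and all neighbours but TMEM87B and PLEKHA2 overlapped.

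Counted together, 4 of the 9 compared genes were at least 2-fold higher at 24 h and none lower, the 4 being those chosen for it. In all compared genes 0.389% were higher and 0.244% lower at 24 h. At 48 h 5 of 9 were higher and 1 lower, where 14.3% of all compared genes were higher and 18.5% lower. Among the 5 compared paralogs and partners none passed 2-fold at 24 h, and at 48 h TMEM87A was higher and PLEKHA2 lower. The 4 chosen genes were higher at both times, as were 0.199% of all compared genes (0.154% were lower at both).

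With time under control siRNA, 1 of 9 genes (NEK7) was lower and none higher, against 0.425% lower and 0.561% higher of all compared genes. With time under SAF-A siRNA, TMEM87B, TMEM87A and NEK6 were at least 2-fold higher and none was lower, against 15.5% higher and 16% lower of all compared genes. Centring each comparison on its median left TMEM87A short of 2-fold there (0.98). Rescaling to TPM moved the share of higher genes among all changed genes from 61.4% to 43.3% at 24 h, from 56.9% to 68.4% with time under control siRNA and from 49.3% to 63.8% with time under SAF-A siRNA. It moved the median of all compared genes by -0.16 at 24 h and by 0.20 with time under SAF-A siRNA.

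**Figure D2:**
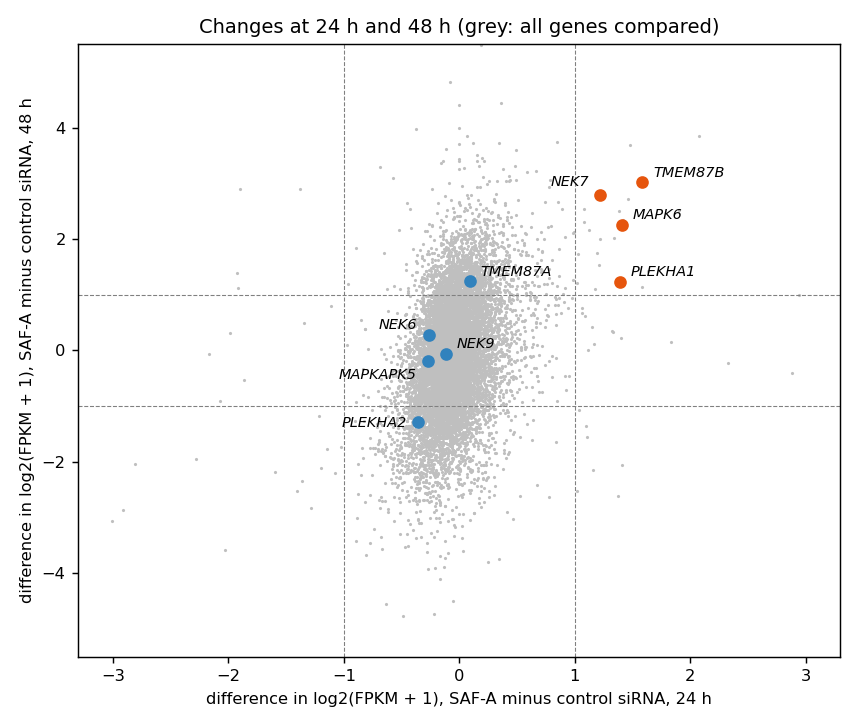
Difference in log2(FPKM + 1) between SAF-A and control siRNA at 24 h (x axis) and 48 h (y axis) for 11053 genes in grey, with the 4 chosen genes in orange, 5 paralogs and partners in blue and dashed lines at 2-fold; 6 genes lie outside the axes. The orange points lie between 1.22 and 1.58 on the x axis, and the blue points between -0.36 and 0.09.

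At the edge of the choice, genes were ranked by the smaller of their 24 h and 48 h differences among genes at a mean of 5 FPKM or more with separate intervals at both times. NEK7 stood at 1.22, after TMEM87B (1.58), MAPK6 (1.40), ACLY (1.38) and PLEKHA1 (1.23), and MIGA1 followed at 1.21. SMIM14 at 1.02 was the last past 2-fold and CAPRIN2 at 0.99 the first short of it.

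Ratios within a library do not depend on how libraries were scaled to each other, and FPKM is per length, so the pairs can be set side by side. TMEM87B over TMEM87A was 0.0673 (control) against 0.254 (SAF-A) in the 24 h libraries and 0.0631 against 0.319 in the 48 h libraries. The ratio was 3.78 times control at 24 h and 5.05 times at 48 h, and TMEM87A remained the more abundant. MAPK6 over MAPKAPK5 was 1.35 (control) against 4.56 (SAF-A) in the 24 h libraries and 0.769 against 4.61 in the 48 h libraries. MAPK6 RNA was thus below MAPKAPK5 RNA in the control 48 h library only.

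PLEKHA1 over PLEKHA2 was 0.132 (control) against 0.532 (SAF-A) in the 24 h libraries and 0.115 against 0.799 in the 48 h libraries. Since PLEKHA1 was higher and PLEKHA2 lower, this ratio differed more than either gene, by 4.03 times at 24 h and 6.92 times at 48 h. At 48 h with SAF-A siRNA its extreme bounds, 0.325 to 1.60, included equal levels.

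NEK7 over NEK6 was 2.63 (control) against 7.62 (SAF-A) in the 24 h libraries and 0.247 against 1.64 in the 48 h libraries. The leading gene of this pair was NEK7 in 3 libraries, with bounds of 0.955 to 2.65 at 48 h with SAF-A siRNA, and NEK6 in the control 48 h library. That order rests on the sum over 7 NEK6 transcripts: against the NEK6 transcript with the highest mean alone, the control 48 h ratio was 1.25. NEK7 over its upstream kinase NEK9 was 5.92 and 15.4 at 24 h and 0.831 and 7.06 at 48 h. The choice of the 4 genes favours this direction: in all 5 pairs the SAF-A ratio exceeded the control ratio of the same time with no overlap of the extreme bounds.

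**Figure D3:**
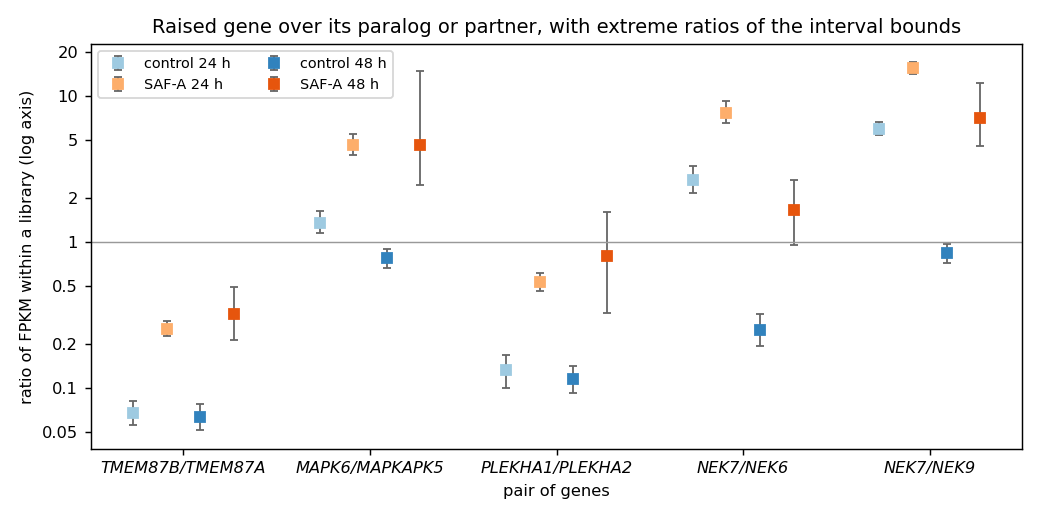
Ratio of FPKM within each library on a log axis, for the 5 measurable pairs of a chosen gene and its paralog or partner; bars span the most extreme ratios of the deposited interval bounds and the line marks equal levels. Orange points (SAF-A siRNA) stand above the blue point of the same time in every pair, and NEK7/NEK6 stands at 0.247 in the control 48 h library.

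TMEM87B, MAPK6, NEK7, MAPK4, PLEKHA2 and NEK9 have 1 transcript each in the tables, and the other 4 genes have 2 to 7. For PLEKHA1 the 24 h difference was largest in NM_021622, at 2.02 (control) against 7.91 FPKM (SAF-A), which then made 76.4% of the gene. NM_001195608, which starts upstream of it, went from 1.12 to 2.44 FPKM in the same libraries. At 48 h NM_021622 was at 1.45 FPKM with control siRNA and near 0 (upper bound 0.467) with SAF-A siRNA, where NM_001195608 was at 7.08 FPKM and the longest gene span, NM_001001974, at 2.78 FPKM. The leading PLEKHA1 transcript was thus not the same at the 2 times, in the controls as well as in the SAF-A libraries.

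NEK6 transcripts begin at 5 positions in the files, and their shares differed between libraries. NM_014397 led at 24 h, with 46.5% in control and 69.2% in SAF-A cells. NM_001166167 led in the control 48 h library with 40.3%. NM_001166168 led in the SAF-A 48 h library with 95.4% of a level that rested on about 69 reads, at 22.8 FPKM (deposited interval 16.9 to 28.7). Reads in shared sequence do not tell the transcripts apart, so these shares are less certain than the read count. The 2 control libraries also differed in the leading transcript.

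TMEM87A was carried by NM_015497 in all libraries, with 92.9% to 94.4% in 3 of them and 82.7% at 48 h with SAF-A siRNA, where NM_001286487 reached 9.47 FPKM. The higher TMEM87A level at 48 h was present in NM_015497 alone, at 25.7 (control) against 55.3 FPKM (SAF-A). The 2 MAPKAPK5 transcripts, of 2285 and 2291 nt, were assigned changing shares of the gene. NM_139078 was put at 51.0% (control) against 64.2% (SAF-A) in the 24 h libraries and 100.0% against 33.0% in the 48 h libraries. In the SAF-A 48 h library NM_003668 led, with 67.0% of about 27 reads (Wilson 95% interval 47.8% to 81.4%). Both have 14 exons and the same ends, so the reads that tell them apart may be few, and which of them led is uncertain.

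**Figure D4:**
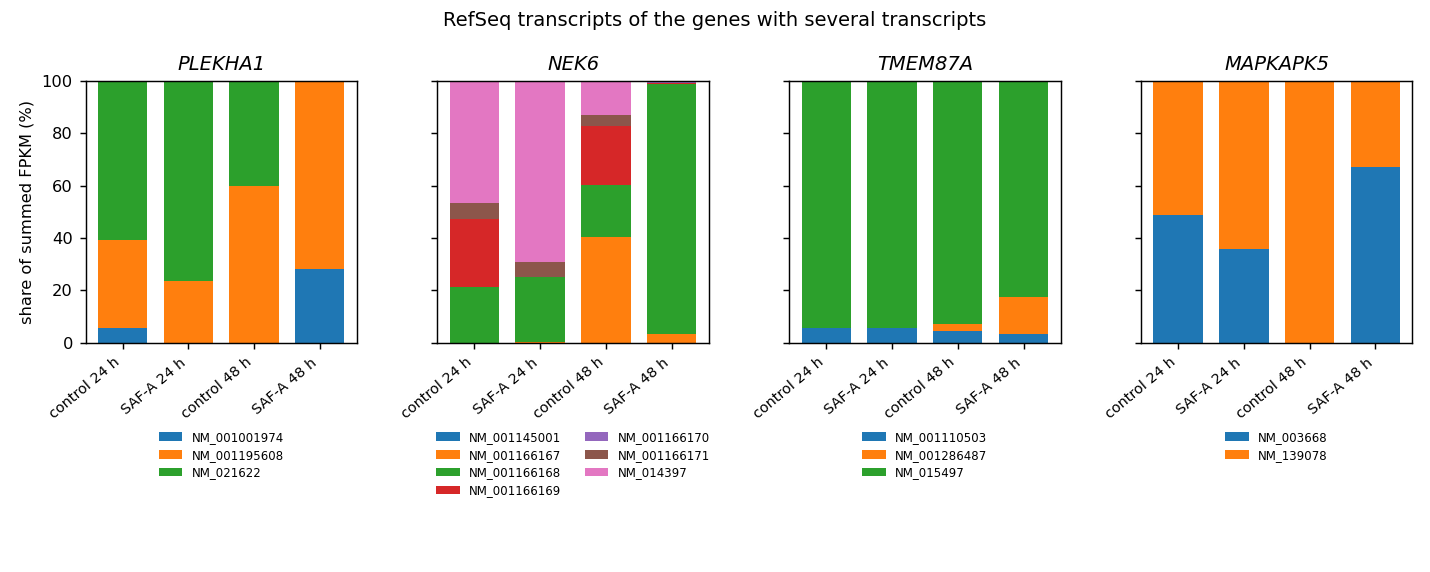
Share of the summed FPKM of PLEKHA1, NEK6, TMEM87A and MAPKAPK5 taken by each RefSeq transcript, stacked to 100% for each of the 4 libraries. TMEM87A keeps one leading transcript in all libraries, and the leading transcript of the other 3 genes differs between libraries, the control libraries included for PLEKHA1 and NEK6.

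The genes lie on hg19 as follows. TMEM87B spans chromosome 2, 112812800 to 112876895, plus strand, with 19 exons, and NEK7 spans chromosome 1, 198126108 to 198291548, plus strand, with 10 exons. MAPK6 spans chromosome 15, 52311411 to 52358462, plus strand, with 6 exons, and PLEKHA1 spans chromosome 10, 124134094 to 124191871, plus strand, with up to 14 exons. TMEM87A lies on the minus strand of chromosome 15, 42502650 to 42565782, and NEK6 on the plus strand of chromosome 9, 127019885 to 127114719. MAPKAPK5 spans chromosome 12, 112280032 to 112331228, plus strand, and NEK9 spans chromosome 14, 75548818 to 75593778, minus strand, with 22 exons. MAPK4 spans chromosome 18, 48086484 to 48258196, plus strand, and PLEKHA2 spans chromosome 8, 38758753 to 38831430, plus strand. These spans were read from the deposited transcript files. The members of each pair share no stretch of 50 bases, so a read that matched one paralog without mismatch did not match the other. TMEM87B, NEK7, NEK6, NEK9, MAPK4 and MAPKAPK5 hold no 50-base stretch found elsewhere in the genome, while PLEKHA2 holds 3.65%, PLEKHA1 1.90% and TMEM87A 0.327%.

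The genes nearest in profile were sought for each of the 4 chosen genes among 7601 genes at a mean of 5 FPKM or more, by Euclidean distance of log2(FPKM + 1) over the 4 libraries after centring. MIGA1 was nearest to MAPK6 (0.28), then TGFBR1 (0.38) and ACLY (0.44). RC3H2 was nearest to PLEKHA1 (0.31), then STK17B and CDC23 (0.44 each). PIP4P2 was nearest to TMEM87B (0.49), then EFR3A (0.60) and CD82 (0.66).

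The genes nearest to NEK7 lay farther off: HDGFL3 at 1.11, followed by SMAD5 (1.17) and CLIC4 (1.18). HDGFL3 was at 31.7 (control) against 37.2 FPKM (SAF-A) at 24 h and at 7.15 against 33.2 FPKM at 48 h, so its 24 h libraries were alike where those of NEK7 were not. Among the chosen genes themselves MAPK6 and PLEKHA1 were the closest pair (0.83), and TMEM87B and NEK7 the farthest apart (2.42). These distances rest on 4 libraries and describe likeness only.

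Families and pathways around the 10 genes were followed in 8 lists of 90 genes, of which 76 could be compared. At 24 h none of the 76 was at least 2-fold higher or lower, where 0.389% of all compared genes were higher and 0.244% lower. The median log2 difference of the 76 was -0.08 (all compared genes -0.07). At 48 h 15 were higher (19.7%, all compared genes 14.3%) and 13 lower (17.1%, all compared genes 18.5%). STX6 was the highest of the 76 at 24 h, at 0.47. The 4 chosen genes lay above it, which follows from how they were chosen and sets nothing apart. None of the 76 passed 2-fold at both times, where 0.199% of all compared genes were higher and 0.154% lower at both.

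In the MAPK family 8 of 12 genes were compared, and 2 were higher at 48 h (14.3% of all compared genes). The median of the 8 was 0.58 (all genes -0.11). MAPK3 (ERK1), a classical growth factor kinase, had a log2 difference of 1.45, at 8.37 (control) against 24.5 FPKM (SAF-A), and MAPK14 (p38 alpha), a stress kinase, one of 1.02. MAPK11 was lowest at -0.78, with overlapping intervals and about 4.01 reads with SAF-A siRNA. At 24 h NLK was highest at 0.04 and MAPK11 lowest, at -0.27.

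In the list around ERK3 and MAPKAPK5, 12 of 14 genes were compared, and 3 were higher and 2 lower at 48 h (all compared genes 14.3% and 18.5%). HSPB1, the small heat shock protein that MAPKAP kinases phosphorylate, was highest at 1.27, at 13.7 (control) against 34.4 FPKM (SAF-A), and it was also the highest of the list at 24 h (0.46). MAPKAPK3 (1.22) and MAPKAPK2 (1.14), kinases related to MAPKAPK5, passed 2-fold too. PAK2, a kinase that phosphorylates the activation loop of ERK3, was lowest at both times, at 6.96 and 3.73 FPKM at 24 h (-0.75) and 7.01 and 1.38 FPKM at 48 h (-1.75). The SAF-A 48 h value of PAK2 rested on about 10.0 reads. CCND3, a cyclin that ERK3 binds, had a 48 h difference of -1.10.

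In the NEK family 5 of 8 genes were compared. At 48 h, where 18.5% of all compared genes were lower, only NEK2, a centrosomal mitotic kinase, passed 2-fold. It was at 24.1 and 24.7 FPKM at 24 h and at 22.7 (control) against 0.953 FPKM (SAF-A) at 48 h. The last value is about 2.25 reads, below the 1.27 FPKM of 3 reads, so no fold is given. NEK11 was highest at 48 h (0.65) and lowest at 24 h (-0.46), and NEK1 highest at 24 h (0.04). The SAF-A 48 h value of NEK11 rested on about 8.73 reads, and its intervals overlapped at both times.

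Around NEK9, NEK6 and NEK7 all 12 genes were compared, and 5 were lower and none higher at 48 h (all compared genes 18.5% and 14.3%). The list median was -0.66 (all genes -0.11). PLK1 and CDK1, which act upstream of NEK9 in mitosis, had differences of -1.37 and -1.43, and the spindle motors KIF11 and KIF20A -1.41 and -1.31. EML2, a microtubule-associated protein, was lowest, at 4.91 FPKM with control siRNA and 0.00229 FPKM with the SAF-A siRNA at 48 h, less than 1 read, so no fold is given. EML4 was the highest of the list at 0.39, and NEK7, which was chosen for being higher at both times, had 2.78. At 24 h the list ran from EML2 at -0.30 to DYNLL1 at 0.32.

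Of the other PLEKHA genes 3 of 6 were compared. None passed 2-fold at 48 h (all compared genes 14.3% higher and 18.5% lower), with differences from -0.47 (PLEKHA3) to -0.11 (PLEKHA5). At 24 h they ran from -0.38 (PLEKHA8) to -0.01 (PLEKHA3). Compared were 15 of 16 genes that make or remove PtdIns(3,4)P2 or are PDZ partners of PLEKHA1 and PLEKHA2. At 48 h 3 were higher and 3 lower (all compared genes 14.3% and 18.5%). The phosphatase INPP4B, which removes PtdIns(3,4)P2, had 1.19, at 18.2 (control) against 43.0 FPKM (SAF-A). The kinase subunit PIK3CD had 1.07. SNTB2, a PDZ protein of the syntrophin family, was lowest at -1.56. The kinase subunit PIK3CB had -1.16, from about 6.26 reads with SAF-A siRNA. At 24 h SNTB1 was highest at 0.18.

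Of 5 further membrane proteins of the TMEM87 kind 4 were compared. At 48 h 3 of them were at least 2-fold higher (14.3% of all compared genes). The median over the 4 was 1.22 (all genes -0.11). GPR108, a Golgi protein, had 2.16, at 17.96 (control) against 83.9 FPKM (SAF-A), GPR107 had 1.39 and WLS, the carrier of Wnt proteins, 1.05. GPR180 was lowest at 0.11, with overlapping intervals. At 24 h they ran from -0.11 (GPR108) to 0.07 (GPR180). The SAF-A libraries differed with time in the same genes, with 3 of 4 past 2-fold, and both comparisons use the SAF-A 48 h library.

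Of 17 genes for the route from endosomes to the Golgi, all were compared. At 48 h 4 were higher and 2 lower (all compared genes 14.3% and 18.5%), with a median of 0.25 (all genes -0.11). SNX2 was highest at 2.47, at 10.5 (control) against 62.6 FPKM (SAF-A), while SNX5 was lowest at -2.07, at 34.8 and 7.55 FPKM. SNX1, SNX2, SNX5 and SNX6 form the sorting nexin part of the retromer route, and SNX6 (1.37) and SNX1 (0.25) lay between. The retromer core VPS35 had 1.20 and the SNARE protein STX10 1.02. STX16 was lower at -1.39 with overlapping intervals and about 7.41 reads with SAF-A siRNA. At 24 h STX6 was highest at 0.47 and STX16 lowest at -0.34.

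**Figure D5:**
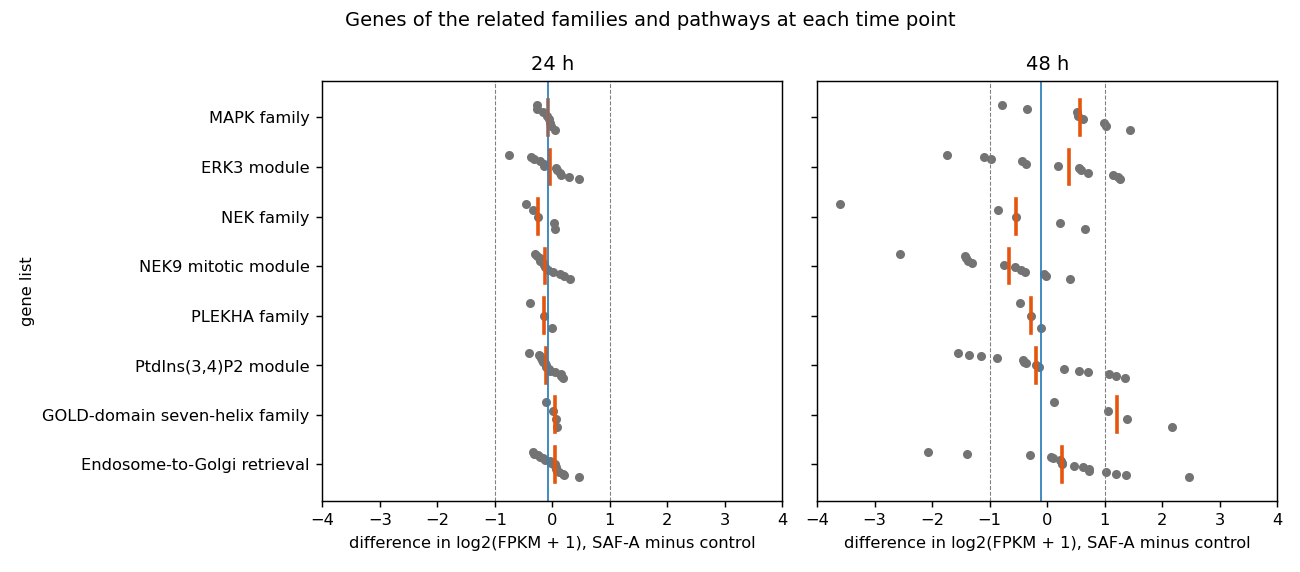
Difference in log2(FPKM + 1) between SAF-A and control siRNA for the compared genes of 8 lists at 24 h and 48 h; grey points are genes, orange bars list medians, blue lines the median of all compared genes and dashed lines 2-fold. No point passes 2-fold at 24 h, where 0.389% of all compared genes were higher and 0.244% lower. At 48 h the lowest point is NEK2, at about 2.25 reads with SAF-A siRNA, and the highest is SNX2 at 2.47.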

How the data were processed

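The authors deposited, per library, a table of FPKM with lower and upper 95% bounds and a Cufflinks transcript file with coverage, per the file headers; the bounds cover abundance error within a library only. TopHat2 2.0.10, Bowtie2 2.1.0, Cufflinks 2.2.1, Cuffdiff and build hg19 are named in the submitters' processing notes; strand use and the treatment of multiply mapped reads are not given in the sources used here. Libraries came from total RNA depleted of ribosomal RNA and were read as single reads of 50 bases, per the labels' protocols.

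Rows were joined to symbols through RefSeq (97.1% of 47338 rows; GRCh38.p14, names only) and summed per symbol. Summed bounds are wider than an interval of the sum. Extreme bounds of a difference set the lower bound of one library against the upper bound of the other. Mapped reads were obtained from coverage divided by FPKM, and reads per gene from the effective length (fragments assumed at 200 ± 80 nt); they describe depth only. Of 238 introns of the 10 genes, 97.9% had GT and AG ends in GRCh37, and words of 50 bases were searched there. Values were computed with Python 3.11.15, pandas 2.3.3 and numpy 2.4.6. No model was fitted.

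The 10 genes, the lists and the naming rule were chosen with earlier results of these data known. Named are the 10 genes, HNRNPU, the 3 genes nearest to each chosen gene and, per list, genes changed the same way at both times and the highest and lowest gene at each time; other genes past 2-fold at 48 h were named after their values were seen. Some list genes that the rule names are not reported here. Proteins were not analysed here.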

Additional observations from a re-analysis of the deposited data

How the results depend on the processing

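No paired analysis was possible because each group holds 1 library. Tried in place of the reported settings were a pseudocount of 0.1, no minimum level, a mean of at least 5 FPKM, all lengths, TPM, centring on the median, a 1.5-fold threshold, intervals that must not overlap, the row of a symbol with the highest mean alone and, added after the data were seen, a filter without the SAF-A 48 h library. No called difference of the 10 genes changed sign under them. The count of higher genes at 24 h was 4 throughout, except 3 with the highest row alone.

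With a 1.5-fold threshold, 2 of the genes were lower with time under control siRNA and 2 under SAF-A siRNA; centring and the pseudocount of 0.1 gave 1 under SAF-A siRNA. The highest row alone gave 2 lower at 48 h, PLEKHA2 and MAPKAPK5. In the lists a 1.5-fold threshold gave 24 higher at 48 h, 1 lower at 24 h, 2 higher and 1 lower with time under control siRNA, and 27 higher and 16 lower with time under SAF-A siRNA; the highest row alone gave 1 higher and 1 lower at 24 h and 1 higher with time under control siRNA. For ratios the highest row alone gave 2.65 (control 24 h) and 7.10 (SAF-A 24 h) and 14.0 (SAF-A 48 h) for MAPK6/MAPKAPK5, 12.4, 30.7 and 1.25 (control 24 h, SAF-A 24 h, control 48 h) for NEK7/NEK6, and 0.0444, 0.125 and 0.0691 for PLEKHA1/PLEKHA2 in the same libraries; it leaves out transcripts by construction. Over all compared genes the counts ranged from 26 to 213 higher (43 reported) and 5 to 166 lower (27) at 24 h, 1310 to 2775 (1581) and 1284 to 3468 (2040) at 48 h, 37 to 318 (62) and 29 to 256 (47) with time under control siRNA, and 1410 to 3034 (1717) and 1121 to 3114 (1769) under SAF-A siRNA. At 1216740 mapped reads, depth limits each comparison that uses the SAF-A 48 h library.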
